A study of Mus musculus with 12 samples.

Results

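The transcripts followed here are those of 9 genes of the interleukin 33 (IL-33) and interleukin 1 (IL-1) family in mouse CD4+ T cells, out of 24062 genes in the count table. They were chosen by name: the IL-33 receptor chain Il1rl1 (ST2) with its ligand Il33 and coreceptor Il1rap, the IL-1 receptors Il1r1 and Il1r2 with the antagonist Il1rn, the IL-18 receptor chains Il18r1 and Il18rap, and the inhibitory receptor Sigirr. All 9 were in the table and passed the filter on low counts, which kept 13509 genes. Il33 passed it through the tumour libraries alone, so its place in the counts of changed genes carries no weight.

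Messenger RNA was sequenced from CD4+ T cells of C57BL/6 mice, which had been separated on GFP: the GFP+ fraction is called Treg (regulatory) and the GFP- fraction Tconv (conventional). The groups were Treg and Tconv from tumours, Treg and Tconv from the spleens of the same kind of tumour-bearing (TB) mice, and Treg and Tconv from the spleens of normal mice. TB mice had received TC-1 cells, a transplantable mouse tumour line of lung epithelial origin, by vein 3 weeks earlier. Each of the 6 groups had 2 libraries, with 18624132 to 24111546 counts per library. All groups carried the GFP that was used for sorting; the promoter that drives it and the age of the mice are not named in the sample descriptions. There was no matching organ from normal mice, so the tumour and the organ it grew in cannot be told apart in any comparison with spleen. Whether the paired libraries of a group are from different mice is not stated. The p-values cover the spread between these samples, which may be technical.

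IL-33 is an alarmin held in the nuclei of stromal and epithelial cells and released on damage. It binds ST2, which then recruits the IL-1 receptor accessory protein (Il1rap) and signals through MyD88 to NF-κB. IL-1 uses the same accessory protein through IL-1R1, while IL-1R2 binds IL-1 without signalling and the Il1rn product blocks IL-1R1. IL-18 signals through its own pair of chains, and SIGIRR dampens signalling by several receptors of the family. Treg cells of non-lymphoid tissues are known for ST2, and activated Treg cells for the decoy IL-1R2.

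The genes of 5 of these receptors lie in one cluster on the plus strand of mouse chromosome 1 (mm10): Il1r2 (40074079 to 40125231), Il1r1 (40225080 to 40317257), Il1rl1 (40429570 to 40465415), Il18r1 (40465552 to 40500854) and Il18rap (40515362 to 40551705). Il1rn is on chromosome 2 (24336853 to 24351494), Sigirr on the minus strand of chromosome 7 (141091175 to 141100572), Il1rap on chromosome 16 (26581704 to 26730117) and Il33 on chromosome 19 (29925114 to 29960718). Il1rap shares 552 exonic bases with the opposite-strand gene Gm20319, and how strand was treated in counting is not known here. The other 8 share no exonic base with another annotated gene.

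RefSeq promoter sequences (GRCm38.p6, the assembly of mm10) covered 8 of the 9 genes. The 250 bases before 4 start sites in the chromosome 1 cluster are shown, picked because they hold a GATA hexamer, the type of sequence bound by GATA3. The windows of Il1r1 (2) and Il18r1 (3) in the same cluster held 0 GATA hexamers and are not shown; the third Il18r1 window held 2 of the STAT-type palindromes defined next. All 4 are on the plus strand and are written in lower case. Capitals mark GATA hexamers (AGATAA or AGATAG, and also TGATAA or TGATAG) and, in Il1r2, also the STAT-type palindrome TTCNNNGAA. Both strands were searched, so some capitals spell the reverse complement of a hexamer, and no marked matches overlap.
Il1rl1, distal start, chr1:40429320-40429569: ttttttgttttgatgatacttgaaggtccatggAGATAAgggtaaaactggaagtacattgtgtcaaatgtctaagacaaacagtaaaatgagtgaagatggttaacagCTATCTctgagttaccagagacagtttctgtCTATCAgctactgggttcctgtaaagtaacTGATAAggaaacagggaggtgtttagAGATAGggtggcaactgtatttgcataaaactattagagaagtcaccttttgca
Il1rl1, internal start, chr1:40439379-40439628: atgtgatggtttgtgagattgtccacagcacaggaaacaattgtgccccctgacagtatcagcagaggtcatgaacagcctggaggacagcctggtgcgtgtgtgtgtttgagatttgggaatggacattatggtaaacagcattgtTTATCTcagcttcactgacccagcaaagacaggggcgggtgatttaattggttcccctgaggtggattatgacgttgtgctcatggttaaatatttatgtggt
Il1r2, chr1:40085843-40086092: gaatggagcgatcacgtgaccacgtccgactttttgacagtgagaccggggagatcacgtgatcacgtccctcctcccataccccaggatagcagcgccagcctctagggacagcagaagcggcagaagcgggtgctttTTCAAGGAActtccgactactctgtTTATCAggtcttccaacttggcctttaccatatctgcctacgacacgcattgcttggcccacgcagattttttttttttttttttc
Il18rap, chr1:40515112-40515361: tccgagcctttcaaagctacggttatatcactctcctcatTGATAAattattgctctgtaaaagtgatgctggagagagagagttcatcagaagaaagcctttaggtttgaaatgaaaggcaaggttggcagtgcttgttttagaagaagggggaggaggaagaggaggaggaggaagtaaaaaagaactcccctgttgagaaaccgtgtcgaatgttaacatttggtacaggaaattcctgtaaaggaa
The distal Il1rl1 window held 5 GATA hexamers, and the other 3 windows held 1 each. At least 1 such hexamer was present in 26.6% of 32817 windows of this length over all RefSeq start sites, and 5 or more in 14 of them (0.0427%), a number looked up after the count in Il1rl1 was seen. The STAT-type palindrome of Il1r2 was present in 7.01% of windows. The AP-1 sequence TGANTCA was also searched; it was present in 6.75% of all windows and in none of these 4. The matches describe the letters only. The RefSeq start of Il1r2 lies inside the longer annotated gene, and the counts do not separate the start sites.

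The sort was checked on Foxp3, the lineage factor of Treg cells, which stood at 989 to 1247 CPM (counts scaled to library size by TMM) in the 6 Treg libraries and 11.5 to 19.6 CPM in the 6 Tconv libraries. The tumour libraries also held transcripts of other cells. Of 9 fibroblast markers the summed level was 635 to 688 CPM in tumour Treg and 353 to 907 CPM in tumour Tconv, against 0.191 to 5.12 CPM in the spleen groups. Of 9 macrophage and monocyte markers in the table it was 257 to 362 CPM in tumour Treg and 185 to 462 CPM in tumour Tconv, against 2.04 to 9.69 CPM in spleen. Mast cells and basophils are known to bear ST2. Their 8 markers summed to 9.55 to 10.9 CPM in tumour Treg and 6.08 to 8.52 CPM in tumour Tconv, mostly from Kit, against 1.32 to 3.26 CPM in spleen. Kit had 453 counts in tumour Treg and 265 in tumour Tconv, Cpa3 5 and 15, Cma1 7 and 3, Tpsb2 3 and 2, and Fcer1a 1 and 0, while Mcpt4, Mcpt8 and Ms4a2 had 0 in both. The part of mast cell transcripts in the tumour values of Il1rl1 was not tested.

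ST2 was most abundant in tumour Treg, and the tumour Tconv level came up to that of spleen Treg. Il1rl1 stood at 462 and 441 CPM in tumour Treg and at 60.1 and 98.6 CPM in tumour Tconv. In spleen it stood at 59.9 and 86.9 CPM in TB Treg, 3.70 and 1.39 CPM in TB Tconv, 37.5 and 59.5 CPM in normal Treg, and 0.764 and 1.34 CPM in normal Tconv. Tumour Treg lay above every other library and spleen Tconv below every other library, while tumour Tconv and TB spleen Treg overlapped. The order from top to bottom was thus tumour Treg, then tumour Tconv, TB spleen Treg and normal spleen Treg with neighbours close to each other, then spleen Tconv of TB and of normal mice. Both TB spleen Treg libraries lay above both normal spleen Treg libraries, by a narrow margin (59.9 against 59.5 CPM). That difference was not called (0.60 ± 0.27, adjusted p = 0.153, edgeR's quasi-likelihood test with Benjamini-Hochberg adjustment). In a fit of only the groups compared it was called by the same test (0.61, adjusted p = 0.0459). The difference of TB over normal spleen Tconv was not called (1.22 ± 0.73, adjusted p = 0.283).

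Measured against its TB spleen counterpart, tumour Treg had Il1rl1 higher by 2.62 ± 0.27 on the log2 scale (± SE; adjusted p = 5.07e-06). For tumour Tconv the rise was 5.01 ± 0.39 (adjusted p = 8.37e-07). The second value was 5.83 without TB spleen Tconv library 1 and 4.42 without library 2. The rise was smaller in Treg than in Tconv by 2.39 ± 0.50 (interaction, adjusted p = 0.00460), or by 3.21 without library 1 of that group (adjusted p = 0.00640) and 1.80 without library 2 (adjusted p = 0.0486). In these bulk samples, a larger share of ST2-positive cells and more transcript per cell cannot be told apart. Within each site, Treg lay above Tconv, by 2.50 ± 0.27 in the tumour, 4.89 ± 0.39 in TB spleen (5.71 without TB spleen Tconv library 1 and 4.31 without library 2) and 5.51 ± 0.46 in normal spleen (adjusted p = 5.68e-06, 7.44e-07 and 1.10e-06).

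The coreceptor Il1rap kept nearly one level in all groups. It stood at 25.9 and 28.7 CPM in tumour Treg and 31.3 and 32.9 CPM in tumour Tconv, against 27.1 and 28.7 CPM in TB spleen Treg and 25.5 and 25.1 CPM in TB spleen Tconv. Normal spleen Treg had 28.1 and 28.9 CPM and normal spleen Tconv 27.5 and 26.4 CPM. Tumour Tconv was the one group above all others, by 0.34 ± 0.08 over TB spleen Tconv (adjusted p = 0.00453). In tumour Treg against TB spleen Treg the difference was −0.03, with a 95% interval of −0.21 to 0.15, and the 4 spleen comparisons, from −0.09 to 0.14, were not called. Treg lay below Tconv in the tumour by a small step (−0.23 ± 0.08, adjusted p = 0.0288), a call lost without tumour Treg library 1 (−0.16, adjusted p = 0.172) or tumour Tconv library 2 (−0.21, adjusted p = 0.119).

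The balance of receptor and coreceptor transcripts therefore followed Il1rl1. Per kilobase of exon, the ratio of Il1rl1 to Il1rap was 29.3 and 25.4 for the libraries of tumour Treg, and 3.16 and 4.94 for those of tumour Tconv. In TB spleen it was 3.64 and 4.99 in Treg and 0.239 and 0.0912 in Tconv, and in normal spleen 2.20 and 3.39 in Treg and 0.0459 and 0.0834 in Tconv. Receptor transcripts outnumbered coreceptor transcripts in all 6 Treg libraries and both tumour Tconv libraries, and were outnumbered in all 4 spleen Tconv libraries. These ratios use the merged exons of each gene and are not corrected for isoforms.

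The ligand transcript was scarce and was found in the tumour. The tumour Treg libraries held 56 and 64 counts of Il33, and the tumour Tconv libraries 10 and 61, against 0 in both TB spleen Treg libraries, 0 and 1 in TB spleen Tconv and 0 in all normal spleen libraries. Its level in tumour Treg was at least 41.9-fold that in TB spleen Treg (taking 3 counts in that group as the floor). In tumour Tconv the ratio to TB spleen Tconv was 74.0 (95% counting interval 12.9 to 2965). The fitted log2 change of Il33 there, which depends on the prior count, was 5.84; it was 6.56 without tumour Tconv library 1, 4.25 without tumour Tconv library 2 (adjusted p = 0.0103), 5.07 without TB spleen Tconv library 1 and 8.22 without TB spleen Tconv library 2. Tumour Treg and tumour Tconv overlapped (0.62 ± 0.61, adjusted p = 0.445), but without tumour Tconv library 2 the difference was 2.19 and was called (adjusted p = 0.00696). Intervals and floors cover counting error only.

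**Figure D1:**
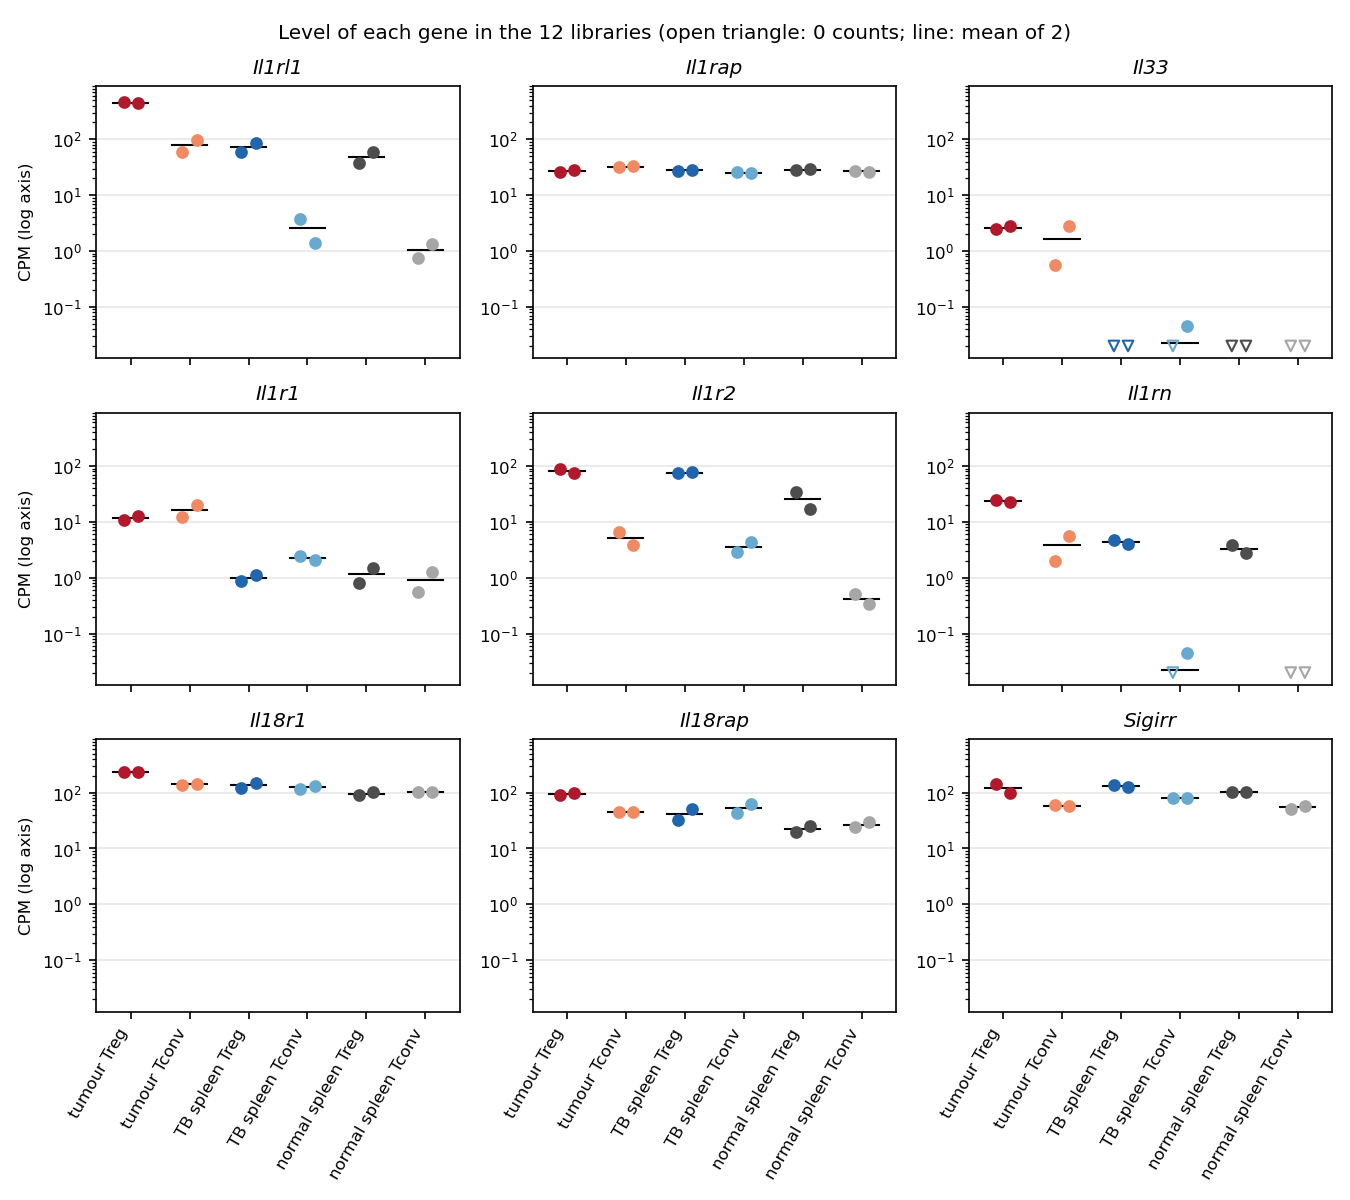
Level of each of the 9 genes in the 12 libraries, in CPM on a log axis, with 2 points per group and a line at their mean; open triangles mark 0 counts. Il1rl1 is at 462 and 441 CPM in tumour Treg, above all other libraries, Il1r2 is high in both tumour and TB spleen Treg, and Il1rap lies between 25.1 and 32.9 CPM throughout.

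The IL-1 receptors parted by site and by cell type. Il1r1, the signalling receptor, went with the tumour: 10.6 and 12.5 CPM in tumour Treg and 12.2 and 20.1 CPM in tumour Tconv, against 0.859 and 1.10 CPM in TB spleen Treg and 2.40 and 2.11 CPM in TB spleen Tconv. Normal spleen Treg had 0.795 and 1.51 CPM and normal spleen Tconv 0.561 and 1.24 CPM. All 4 tumour libraries lay above all 8 spleen libraries. Il1r1 rose by 3.56 ± 0.36 in tumour Treg over TB spleen Treg (adjusted p = 4.42e-06) and by 2.85 ± 0.32 in tumour Tconv over TB spleen Tconv (adjusted p = 1.92e-05). The 2 cell types overlapped in the tumour (−0.49 ± 0.28, adjusted p = 0.167), but without tumour Tconv library 1 the difference was −0.83 and was called (adjusted p = 0.00776).

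In TB spleen Il1r1 was lower in Treg than in Tconv by 1.20 on the log2 scale (−1.20 ± 0.40, adjusted p = 0.0299). This call was lost without any one of the 4 TB spleen libraries: −1.03 without Treg library 1 (adjusted p = 0.154), −1.38 without Treg library 2 (0.0692), −1.11 without Tconv library 1 (0.122) and −1.29 without Tconv library 2 (0.0719). In normal spleen the 2 cell types overlapped (0.34 ± 0.45, adjusted p = 0.595), as did TB and normal spleen Treg (−0.23 ± 0.43, adjusted p = 0.779).

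Il1r2, the decoy, went with Treg cells and not with the tumour. It stood at 87.3 and 75.6 CPM in tumour Treg and 6.49 and 3.81 CPM in tumour Tconv, and at 74.5 and 78.1 CPM in TB spleen Treg and 2.87 and 4.31 CPM in TB spleen Tconv. Normal spleen Treg had 33.8 and 17.0 CPM and normal spleen Tconv 0.510 and 0.334 CPM. Tumour and TB spleen overlapped in both cell types, at 0.09 in Treg (95% interval −0.41 to 0.60) and 0.48 in Tconv (−0.37 to 1.32).

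TB spleen, on the other hand, lay above normal spleen. Il1r2 was higher by 1.58 ± 0.25 in TB spleen Treg than in normal spleen Treg (adjusted p = 0.00164) and by 3.10 ± 0.64 in TB spleen Tconv than in normal spleen Tconv (adjusted p = 0.00679), with no overlap in either. The Tconv call rested on few counts and was lost with limma-voom (adjusted p = 0.0662), without TB spleen Tconv library 2 (2.76, adjusted p = 0.0540) or without normal spleen Tconv library 2 (2.82, adjusted p = 0.0712). Treg lay above Tconv at every site, by 4.01 ± 0.30 in the tumour, 4.39 ± 0.31 in TB spleen and 5.91 ± 0.47 in normal spleen (adjusted p = 2.23e-07, 2.62e-07 and 7.27e-07), the last being 5.32 without normal spleen Treg library 1.

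Per kilobase of exon, the ratio of decoy to signalling receptor transcripts (Il1r2 over Il1r1) was 27.4 and 20.2 in the tumour Treg libraries and 1.78 and 0.631 in those of tumour Tconv. It was 289 and 237 in TB spleen Treg and 3.99 and 6.81 in TB spleen Tconv, and 142 and 37.4 in normal spleen Treg and 3.03 and 0.898 in normal spleen Tconv. The ratio was lower in tumour Treg than in either group of spleen Treg, with no overlap.

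The antagonist gene Il1rn combined both patterns. It stood at 24.6 and 22.6 CPM in tumour Treg and 1.97 and 5.63 CPM in tumour Tconv, against 4.70 and 4.06 CPM in TB spleen Treg and 3.85 and 2.76 CPM in normal spleen Treg. In spleen Tconv it had 0 and 1 count in TB mice and 0 counts in both normal libraries. Tumour Treg lay above all other libraries. Il1rn rose by 2.43 ± 0.34 in tumour Treg over TB spleen Treg (adjusted p = 9.35e-05) and was higher than in tumour Tconv by 2.60 ± 0.35 (adjusted p = 6.06e-05; 3.57 without tumour Tconv library 2). TB and normal spleen Treg were not called apart (0.40 ± 0.36, adjusted p = 0.507).

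In tumour Tconv the ratio of Il1rn to TB spleen Tconv was 166 (95% counting interval 29.3 to 6589). Between TB spleen Treg and TB spleen Tconv it was 182 (32.3 to 7221), and normal spleen Treg was at least 44.9-fold above normal spleen Tconv. The fitted log2 change of Il1rn in tumour Tconv over TB spleen Tconv, which depends on the prior count, was 7.02; it was 6.04 without tumour Tconv library 2, and 6.26 and 9.40 without TB spleen Tconv libraries 1 and 2. For TB spleen Treg over TB spleen Tconv the fitted change was 7.20, and 6.44 and 9.58 without those same TB spleen Tconv libraries. Macrophages are a known source of this transcript. The summed macrophage markers, 185 and 462 CPM in tumour Tconv libraries 1 and 2, moved with Il1rn between these 2 libraries. Between tumour Treg libraries 1 and 2 the marker sum went from 257 to 362 CPM, and Il1rn from 24.6 to 22.6 CPM. In tumour Treg against tumour Tconv Il1rn was called and 0 of 9 tested macrophage markers were (53.9% of all tested genes). The spread of the marker sum between the 2 tumour Tconv libraries limits what this count can show. In spleen Treg macrophage markers summed to at most 9.69 CPM, beside 2.76 to 4.70 CPM of Il1rn. The part of macrophage transcripts in the tumour Tconv value was not tested.

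Both chains of the IL-18 receptor rose in tumour Treg, and neither was called in tumour Tconv by edgeR. With DESeq2's Wald test Il18r1 just passed in tumour Tconv over TB spleen Tconv (0.24, adjusted p = 0.0486). Il18r1, the ligand-binding chain, stood at 236 and 236 CPM in tumour Treg and 140 and 145 CPM in tumour Tconv, against 119 and 150 CPM in TB spleen Treg and 118 and 129 CPM in TB spleen Tconv. Normal spleen Treg had 91.4 and 101 CPM and normal spleen Tconv 102 and 105 CPM. Tumour Treg lay above every other library, and the normal spleen libraries lay below all others. The log2 change from TB spleen was 0.81 ± 0.09 in Treg (adjusted p = 1.59e-05) and 0.20 ± 0.10 in Tconv (adjusted p = 0.0974), and the changes differed by 0.60 ± 0.13 (interaction, adjusted p = 0.00663). The Tconv change just passed without TB spleen Treg library 1 (adjusted p = 0.0388) or 2 (0.0386), at the same size.

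Il18rap, the signalling chain, stood at 91.3 and 97.2 CPM in tumour Treg and 45.6 and 44.1 CPM in tumour Tconv, against 31.7 and 51.7 CPM in TB spleen Treg and 43.1 and 63.3 CPM in TB spleen Tconv. Normal spleen Treg had 19.9 and 25.0 CPM and normal spleen Tconv 24.3 and 29.2 CPM. Again tumour Treg lay above every other library. The change from TB spleen was 1.18 ± 0.21 in Treg (adjusted p = 3.46e-04) and −0.25 ± 0.21 in Tconv (adjusted p = 0.350), a difference of 1.43 ± 0.29 (adjusted p = 0.00427).

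The cell types were called different in the tumour and in neither spleen. In the tumour, Treg exceeded Tconv by 0.73 ± 0.09 in Il18r1 and by 1.07 ± 0.21 in Il18rap (adjusted p = 3.29e-05 and 7.50e-04). In spleen neither was called, at 0.12 ± 0.10 and −0.36 ± 0.21 in TB mice and −0.11 ± 0.10 and −0.26 ± 0.22 in normal mice. Without a TB spleen Treg library these turned into calls, 0.28 for Il18r1 without library 1 (adjusted p = 0.0293) and −0.75 for Il18rap without library 2 (adjusted p = 0.0159), so the TB spleen values depended on single libraries. The test of whether the Treg and Tconv difference changed between tumour and TB spleen is the same interaction as above.

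TB spleen lay above normal spleen in Il18rap in both cell types, by 0.89 ± 0.22 in Treg (adjusted p = 0.0173) and 0.99 ± 0.22 in Tconv (adjusted p = 0.00890), with no overlap between the groups. Il18r1 was higher by 0.49 ± 0.10 in TB spleen Treg (adjusted p = 0.00603) and not called in TB spleen Tconv (0.26 ± 0.10, adjusted p = 0.0890). Both Treg calls were lost without TB spleen Treg library 2 (Il18rap 0.50, adjusted p = 0.192; Il18r1 0.31, 0.0672) or normal spleen Treg library 1 (0.73, 0.133; 0.42, 0.0626). The Treg call of Il18rap was also lost without normal spleen Treg library 2 (1.07, adjusted p = 0.0594). The Tconv call was lost without TB spleen Tconv library 2 (0.68, adjusted p = 0.0906) or normal spleen Tconv library 1 (0.87, 0.0821). NK cells are known to bear the IL-18 receptor. Their 5 markers summed to 64.6 and 96.2 CPM in TB spleen Tconv libraries 1 and 2, against 41.0 to 47.6 CPM in normal spleen Tconv. In TB spleen Treg they summed to 13.2 to 15.9 CPM, against 14.6 to 19.1 CPM in normal spleen Treg. The sums came mostly from Klrb1c and Eomes, with 2449 and 881 counts in TB spleen Tconv. Klre1 had 34 counts there, Ncr1 19 and Klra8 0. Of the 3 markers that were tested, 1 (Klrb1c) was called higher in TB spleen Tconv (9.74% of all tested genes higher). In TB spleen Treg 0 were called (15.3% of all). In the tumour the NK cell markers summed to 31.0 to 37.5 CPM in Tconv and 2.56 to 3.36 CPM in Treg. Tumour Tconv had 1141 counts of Eomes, 171 of Klrb1c, 24 of Klre1, 13 of Ncr1 and 0 of Klra8. Of the 3 tested, 2 were called lower in tumour Treg than in TB spleen Treg (28.7% of all tested genes lower). In tumour Tconv against TB spleen Tconv 1 was called lower (22.8% of all). The part of NK cell transcripts in the values of Il18r1 and Il18rap, and in their interactions, was not tested.

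Sigirr, the inhibitory member, went with cell type and hardly with site. It stood at 141 and 98.5 CPM in tumour Treg and 61.0 and 56.4 CPM in tumour Tconv, at 135 and 127 CPM in TB spleen Treg and 81.3 and 78.6 CPM in TB spleen Tconv, and at 104 and 104 CPM in normal spleen Treg and 51.3 and 57.4 CPM in normal spleen Tconv. Every Treg library lay above every Tconv library. Treg exceeded Tconv by 1.03 ± 0.13 in the tumour, 0.71 ± 0.13 in TB spleen and 0.93 ± 0.13 in normal spleen (adjusted p = 2.40e-05, 6.55e-04 and 9.09e-05). It fell in tumour Tconv against TB spleen Tconv (−0.45 ± 0.13, adjusted p = 0.0132), a call lost without TB spleen Tconv library 1 (−0.43, adjusted p = 0.0619).

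In Treg the tumour and TB spleen were not separated in Sigirr (−0.13 ± 0.12, adjusted p = 0.396), with the 2 tumour Treg libraries on either side of TB spleen Treg. Without tumour Treg library 1 the difference was −0.41 and was called (adjusted p = 0.00173). TB spleen Treg lay above normal spleen Treg in Sigirr without overlap, and this was not called (0.33 ± 0.12, adjusted p = 0.0962). It was called with no filter on low counts (adjusted p = 0.0397), in a fit of only these groups (0.00202), and without tumour Treg library 1 (0.00701) or 2 (0.00686). TB spleen Tconv lay above normal spleen Tconv by 0.56 ± 0.13 (adjusted p = 0.0134). That call was lost without any one of TB spleen Tconv library 1 (0.53, adjusted p = 0.0808), library 2 (0.58, 0.0503) or normal spleen Tconv library 1 (0.48, 0.109).

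**Figure D2:**
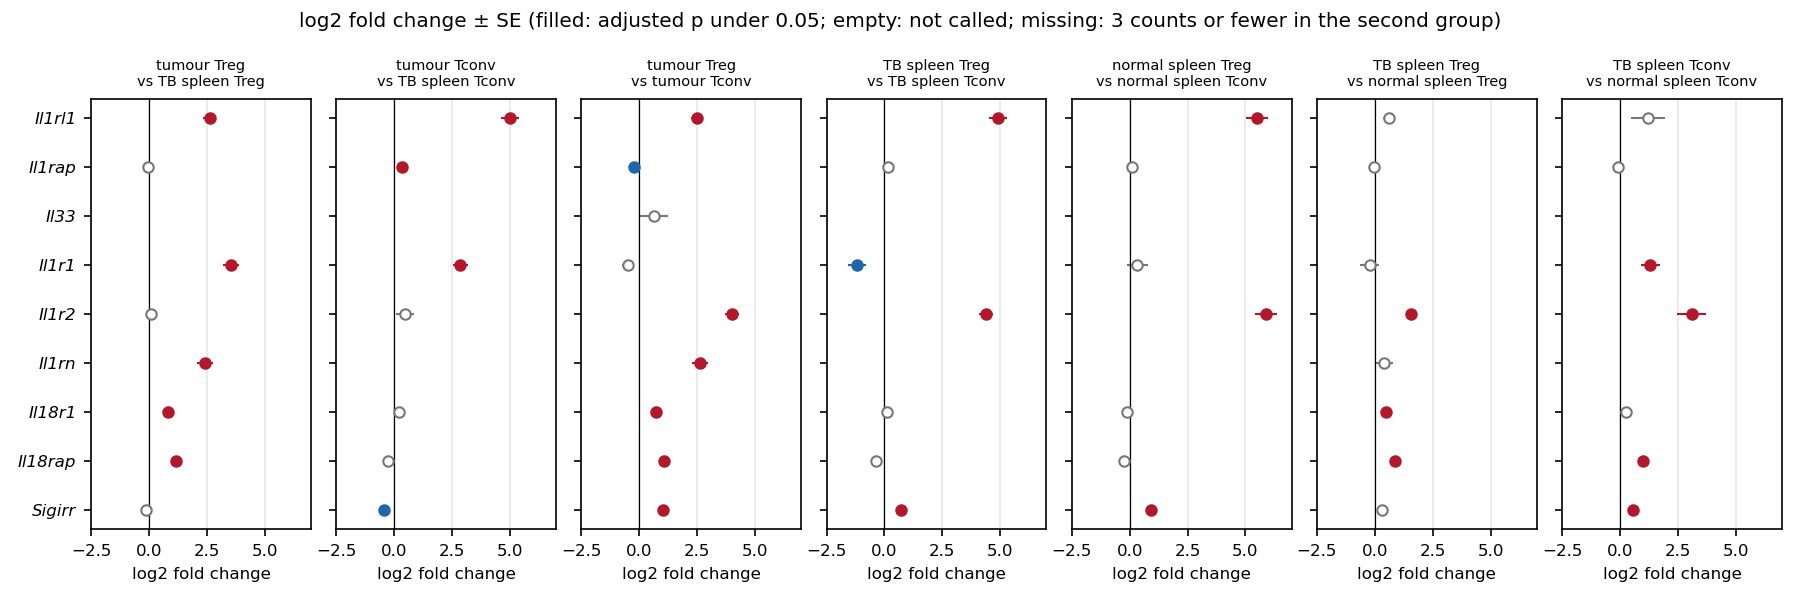
Log2 fold change ± SE of each gene in the 7 comparisons of 2 groups, the first-named group over the second; filled points passed an adjusted p of 0.05, and genes with 3 counts or fewer in the second group are left out. Il1r2 is at 0.09 between tumour and TB spleen Treg and at 4.01 between tumour Treg and Tconv, whereas Il1r1 is at 3.56 and −0.49.

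Counted together in tumour Treg against TB spleen Treg, 6 of the 9 genes were higher and 0 lower, where 61.4% of all tested genes were called (32.8% higher and 28.7% lower); the median log2 change was 1.18, against 0.02 over all tested genes. In tumour Tconv against TB spleen Tconv, 5 were higher and 1 lower (49.1% of all genes called, 26.4% higher and 22.8% lower), with a median of 0.48 against 0.00. In tumour Treg against tumour Tconv, 6 were higher and 1 lower (53.9%, of which 27.2% higher and 26.7% lower), with a median of 1.03 against 0.00. With so many genes called, these member counts are read as descriptions only. Placing Il33 and Il1rn at their bounds or the lower ends of their counting intervals leaves the first 2 medians as they are.

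In the spleen, TB Treg against TB Tconv had 4 genes higher and 1 lower (40.3% of all genes called, 21.0% higher and 19.4% lower). Normal Treg against normal Tconv had 4 higher and 0 lower (40.6%, 21.8% and 18.7%), namely Il1rl1, Il1r2, Il1rn and Sigirr. TB against normal spleen had 3 higher in Treg (15.3% called, 6.80% higher and 8.50% lower) and 4 higher in Tconv (17.2%, 9.74% and 7.49%), with 0 lower in either. Of these 7 calls, that of Il1r2 in Treg was the one that held without any single library. Il1r1 in TB over normal spleen Tconv (1.30 ± 0.42, adjusted p = 0.0491) lost its call without each of 8 libraries, among them both Tconv libraries of TB spleen (1.21 and 1.39) and of normal spleen (0.85 without library 1 and 1.99 without library 2).

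The site change differed between the cell types in 5 genes (24.7% of all genes called, 11.7% higher and 13.1% lower). The change was larger in Treg for Il18r1 and Il18rap and smaller in Treg for Il1rl1, Il1rn and Il1rap. That of Il1rap (−0.38 ± 0.12, adjusted p = 0.0342) was lost without each of 9 libraries, at −0.30 without tumour Treg library 1 (adjusted p = 0.100) and −0.42 without TB spleen Treg library 1 (0.0629). That of Il1rn (adjusted p = 0.0140) rests on 1 count in TB spleen Tconv and was lost without library 1 (adjusted p = 0.0761) or library 2 (0.0605) of that group; it was −4.60, and −3.64 without tumour Tconv library 2. The difference between TB and normal spleen did not differ detectably between the cell types: 0 of 9 genes were called by edgeR, DESeq2 or limma-voom (0.851% of all genes by edgeR, 0.222% higher and 0.629% lower). Il1r1 alone (−1.53 ± 0.60) had an unadjusted p under 0.05.

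The Tconv level as a share of the Treg level shows how far each receptor gene followed the sort. For Foxp3 it was 1.15% in the tumour, 1.48% in TB spleen and 1.86% in normal spleen. Other transcripts known from Treg cells gave other shares: Ctla4 9.97%, 7.26% and 3.71% at the same sites, Ikzf2 3.23%, 6.47% and 3.97%, and Il2ra 1.17%, 7.19% and 1.60%. These genes are also expressed by some Tconv cells. For Il1rl1 it was 17.6% in the tumour (13.0 to 22.4% over pairs of libraries), 3.47% in TB spleen (1.60 to 6.17%) and 2.16% in normal spleen (1.29 to 3.56%). In normal spleen this range covers the Foxp3 share. In TB spleen the Il1rl1 share, taken from group means, lay above that of Foxp3 and below those of Ctla4, Ikzf2 and Il2ra. Its range over pairs there overlapped those of Foxp3 (1.30 to 1.67%), Ikzf2 (6.12 to 6.84%) and Il2ra (5.44 to 9.07%). It lay below the range of Ctla4 (7.09 to 7.42%). In the tumour every pair lay above all 4.

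Il1r2 had shares of 6.33% in the tumour, 4.70% in TB spleen and 1.66% in normal spleen, with a range that covers the Foxp3 share in normal spleen (0.986 to 3.00%). In TB mice it lay above the Foxp3 share and below that of Ctla4 at both sites. Il1rn had 16.1% in the tumour (8.04 to 24.9%) and 0.512% in TB spleen. Foxp3 may differ in level between Treg cells and any Treg cells left in the Tconv gate, and this was not tested.

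**Figure D3:**
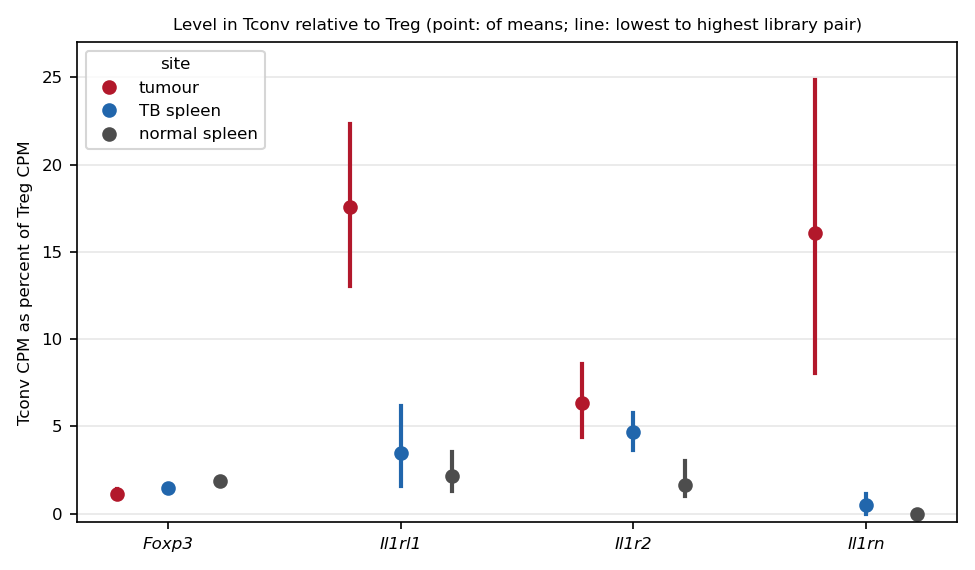
Tconv level as a percent of the Treg level for Foxp3, Il1rl1, Il1r2 and Il1rn at the 3 sites; points are ratios of group means and lines run from the lowest to the highest pair of libraries. Foxp3 lies between 1.15% and 1.86%, while Il1rl1 and Il1rn in the tumour lie at 17.6% and 16.1%.

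Along chromosome 1 the neighbours did not move as one. From Il1r2 onward the Treg over Tconv difference in the tumour was 4.01 for Il1r2, −0.49 for Il1r1, −3.07 ± 0.19 for Il1rl2 (the IL-36 receptor, which lies between Il1r1 and Il1rl1 at 40324610 to 40367562), 2.50 for Il1rl1, 0.73 for Il18r1 and 1.07 for Il18rap. Il1rl2 stood at 1.74 and 1.97 CPM in tumour Treg and 14.6 and 16.6 CPM in tumour Tconv, and at 2.00 and 1.27 CPM in TB spleen Treg and 14.9 and 16.9 CPM in TB spleen Tconv. Its Tconv level hardly varied between sites, and it was lower in Treg at all 3 sites (−3.27 ± 0.20 in TB spleen and −4.09 ± 0.21 in normal spleen). Il1rl1 ends just before Il18r1 begins, yet the first was called between Treg and Tconv in both spleen comparisons and the second in neither.

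Map4k4, the gene before the cluster, was also lower in Treg at each site (−1.45 ± 0.10 in the tumour, −0.63 ± 0.10 in TB spleen and −0.40 ± 0.10 in normal spleen). Between tumour and TB spleen it went down in Treg (−0.47 ± 0.10) and up in Tconv (0.35 ± 0.09).

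**Figure D4:**
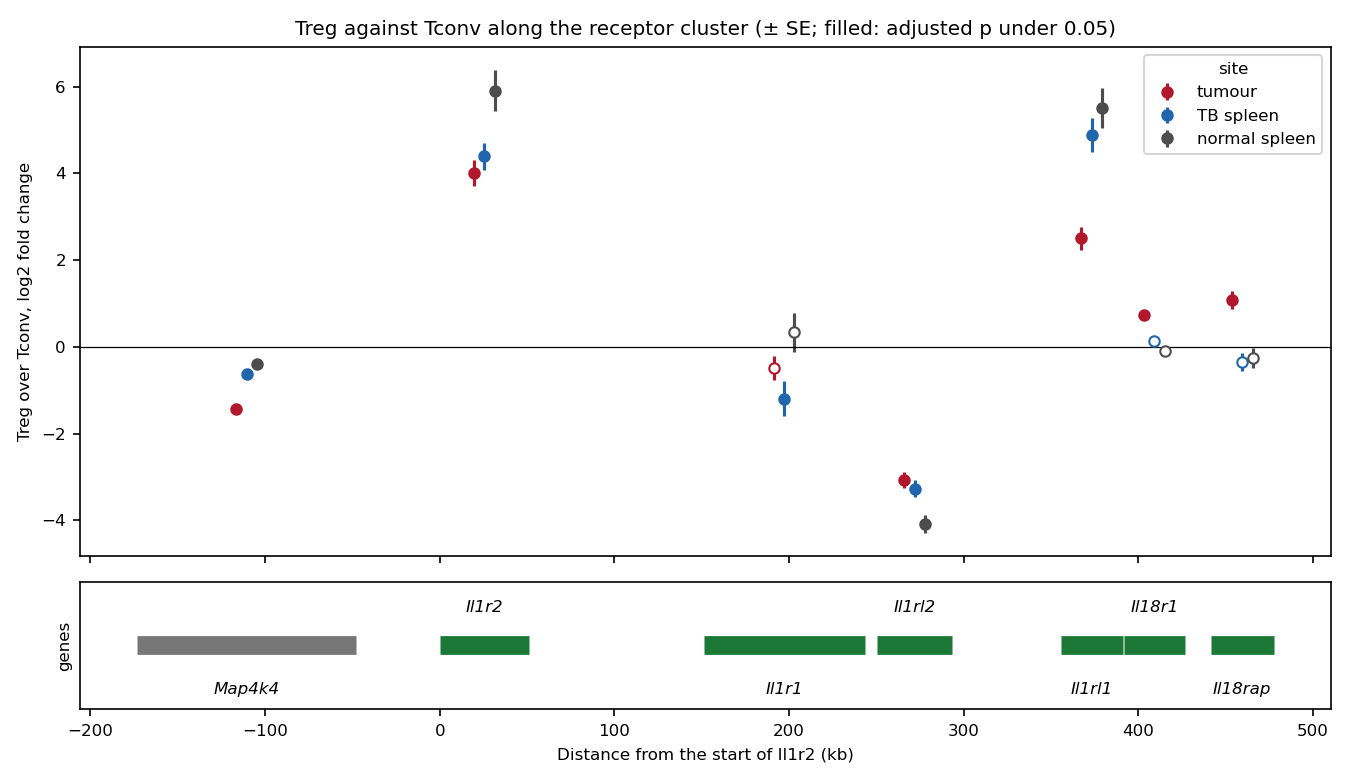
Treg over Tconv log2 fold change ± SE at the 3 sites for the genes of the chromosome 1 cluster, placed by distance in kilobases from the start of Il1r2, with the genes drawn to scale under the points; filled points passed an adjusted p of 0.05. Il1r2 and Il1rl1 lie between 2.50 and 5.91, Il1rl2 between −4.09 and −3.07, and the IL-18 receptor genes near 0 in spleen.

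Transcripts of other cells moved with some of the genes between tumour and spleen. All 8 tested fibroblast markers and all 9 tested macrophage markers were higher in tumour Treg and in tumour Tconv than in TB spleen (32.8% and 26.4% of all tested genes higher). Many of them, such as Col3a1, Dcn, Mgp and Cd14, passed the filter through the tumour libraries alone. So did epithelial markers such as Scgb1a1 and neutrophil markers such as Mmp8. The counts of markers called higher in tumour than in spleen therefore carry no weight. Between tumour Treg and tumour Tconv 0 of the fibroblast and macrophage markers were called, but other lists held calls (all tested genes 27.2% higher, 26.7% lower). Of 5 dendritic cell markers 2 were higher and 1 lower in tumour Treg, with sums of 36.0 to 39.4 CPM against 10.9 to 18.2 CPM. Of 11 epithelial markers 2 were higher and 1 lower. Of the tested CD8 T cell and B cell markers, 2 of 2 and 1 of 2 were higher. Of the tested NK cell and endothelial markers, 3 of 3 and 1 of 5 were lower. In TB spleen Treg the fibroblast markers Col3a1, Dcn, Lum, Pdgfra and Mgp had 0 counts, and Fn1 had 112, Col1a1 69, Col1a2 13 and Pdgfrb 5. Of 11 lung and tumour epithelial markers, 9 were higher in each cell type of the tumour (medians 8.79 in Treg and 8.28 in Tconv). They summed to 119 to 171 CPM in tumour Treg and 93.8 to 109 CPM in tumour Tconv, against 3.19 to 29.6 CPM in the spleen groups. Of 6 tested neutrophil markers, 3 were higher in tumour Treg and 6 in tumour Tconv, with sums of 7.30 to 8.42 CPM in tumour Treg and 2.76 to 14.4 CPM in tumour Tconv, against 0 to 3.94 CPM in spleen. Il33 followed the fibroblast sum between the tumour Tconv libraries, with 10 counts beside 353 CPM of markers in library 1 and 61 counts beside 907 CPM in library 2. Il1r1 did so too (12.2 and 20.1 CPM), as did Il1rl1 (60.1 and 98.6 CPM) and Il1rn. Il1rap (31.3 and 32.9 CPM) and Il18r1 (140 and 145 CPM) were slightly higher in library 2. Il1r2 (6.49 and 3.81 CPM), Il18rap (45.6 and 44.1 CPM) and Sigirr (61.0 and 56.4 CPM) were lower in library 2. Between tumour Treg libraries 1 and 2 the fibroblast sum went from 635 to 688 CPM. Il33 and Il1r1 rose with it, whereas Il1rl1 (462 and 441 CPM) and Il1rn (24.6 and 22.6 CPM) fell. The part of transcripts of any of these cell types in the tumour values of the 9 genes was not tested.

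The fibroblast sums of tumour Treg (635 and 688 CPM) lay between those of the 2 tumour Tconv libraries (353 and 907 CPM). Il1rl1 was 2.50 log2 units higher in tumour Treg, and Il1r2, Il1rn, Il18r1, Il18rap and Sigirr were also called higher there.

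**Figure D5:**
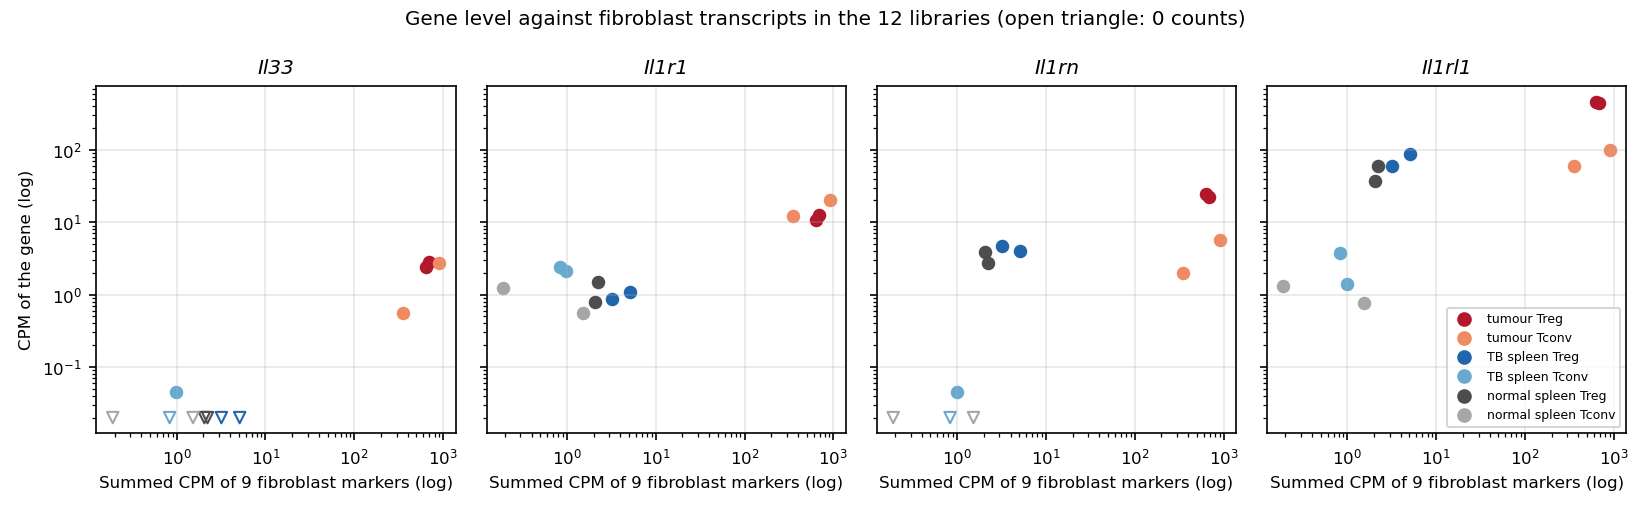
Level of Il33, Il1r1, Il1rn and Il1rl1 in CPM against the summed CPM of 9 fibroblast markers in the 12 libraries, both on log axes; colours mark the 6 groups and open triangles 0 counts. The tumour libraries lie at 353 to 907 CPM of markers and the spleen libraries at 5.12 CPM or less. Among the tumour libraries Il1rl1 and Il1rn are higher in Treg than in Tconv, while Il33 and Il1r1 overlap between the cell types.

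Other genes of the pathway were read from lists. Of 9 other ligands and soluble regulators of the family, 4 had enough counts to be tested, and in tumour against TB spleen 2 were higher in Treg (32.8% of all tested genes; median 1.92, against 0.02 over all) and 4 in Tconv (26.4% of all; median 3.78, against 0.00). Il1a and Il1b passed the filter through the tumour libraries alone, so their place in these counts and medians carries no weight. Il1b, the inflammatory cytokine IL-1β, had 189 counts over the tumour Treg libraries against 1 in TB spleen Treg, a ratio of 198 (95% counting interval 35.1 to 7857), and 208 counts in tumour Tconv against 1 in TB spleen Tconv, a ratio of 217 (38.5 to 8607). Il1a had 51 against 5 counts in Treg and 60 against 2 in Tconv. Both cytokines are also made by macrophages, whose markers rose in the same libraries. The part of transcripts of other cells in these values, and in the tumour values of Il18 and Il18bp, was not tested. Il18, the ligand of the IL-18 receptor, was higher in Treg than in Tconv in TB spleen (3.18 ± 0.47) and normal spleen (2.57 ± 0.49) and rose in tumour Tconv by 2.80 ± 0.49. Il18bp, which neutralises IL-18, rose in tumour Tconv by 1.25 ± 0.28 and lay lower in tumour Treg than in tumour Tconv (−1.09 ± 0.28).

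Of 13 genes of receptor-proximal signalling, 3 were higher and 4 lower in tumour Treg than in TB spleen Treg, and 3 were higher and 3 lower in tumour Tconv than in TB spleen Tconv, with medians of 0.04 and 0.02. Over all tested genes 32.8% were higher and 28.7% lower in tumour Treg, and 26.4% higher and 22.8% lower in tumour Tconv, with medians of 0.02 and 0.00, so these shares were near the background. Irak2, a kinase of the MyD88 complex, was higher in tumour Treg (0.68 ± 0.08) and was above Tconv at every site, by 1.47 ± 0.08 in the tumour, 0.99 ± 0.08 in TB spleen and 1.36 ± 0.09 in normal spleen. Tollip, an inhibitory adaptor, rose in both cell types (0.60 ± 0.06 for Treg and 0.46 ± 0.06 for Tconv). The adaptor Myd88 went up in tumour Treg (0.20 ± 0.06) and down in tumour Tconv (−0.31 ± 0.06), and Irak4 went down in both (−0.42 ± 0.07 and −0.68 ± 0.08). Of 5 genes of ligand processing, 3 were higher and 1 lower in each cell type (medians 0.62 and 0.47, beside the same all-gene shares and medians), with Casp1, the protease that matures IL-1β and IL-18, lower in tumour Treg (−0.55 ± 0.15), and the inflammasome adaptor Pycard higher in tumour Treg (0.66 ± 0.11) and lower in tumour Tconv (−0.67 ± 0.12).

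Of 10 transcription factors known to act on these receptors in T cells, 6 were higher and 1 lower in tumour Treg than in TB spleen Treg, and 7 were higher and 1 lower in tumour Tconv than in TB spleen Tconv. The median change was 0.66 in Treg and 0.50 in Tconv. Over all tested genes 61.4% were called in Treg (32.8% higher) and 49.1% in Tconv (26.4% higher), with medians of 0.02 and 0.00. Gata3, which acts on Il1rl1 in helper and regulatory T cells, averaged 300 CPM in tumour Treg and 98.4 CPM in tumour Tconv, 203 and 86.5 CPM in TB spleen Treg and Tconv, and 188 and 89.6 CPM in normal spleen Treg and Tconv. It rose in tumour Treg (0.57 ± 0.12) and was not called in tumour Tconv (0.18 ± 0.13). The part of Gata3 in the levels of Il1rl1 was not tested. Irf4 and Batf, factors of tissue Treg cells, rose in tumour Tconv by 2.50 ± 0.10 and 1.17 ± 0.09, against 0.79 ± 0.09 and 0.11 ± 0.08 in tumour Treg, the last not called.

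Rora rose in both cell types (2.17 ± 0.12 for Treg and 1.61 ± 0.12 for Tconv), as did Pparg (2.56 ± 0.32 and 3.30 ± 0.46). Tbx21, which drives IL-18 receptor expression in type 1 helper cells, went up in tumour Treg (1.51 ± 0.20) and down in tumour Tconv (−0.89 ± 0.20).

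The genes whose levels ran most closely with a receptor were taken by Pearson correlation of log2 CPM over the 12 libraries, among 9813 genes and as a description of these 6 groups. For Il1rl1 they were Trib1 (0.984), Ripk2 (0.983), Nfkb2 (0.981) and E2f8 (0.980). For Il1r2 they were Mapk8ip1 (0.997), B4galt4 (0.996), Myo3b (0.994) and Gsap (0.993). For Il18r1 they were Galc (0.971), Gpr65 (0.968), Zbed3 (0.963) and Ctla2a (0.961), and for Il18rap they were Gpr65 (0.935), Cd200r4 (0.934), Erlec1 (0.919) and Serpina3f (0.912). Ranked by Spearman correlation, the first 4 genes for Il1rl1 were others, Bub1, Dgat1, Gprc5a and Nudt4 (each 0.993). Among the 9 genes, the closest pairs were Il1rl1 with Il1rn (0.980), Il18r1 with Il18rap (0.939) and Il33 with Il1r1 (0.934). All points share the site and the cell type of their group.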

How the data were processed

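Total RNA of sorted cells was made into stranded, poly(A)-selected libraries, per the labels' protocols. The values are raw counts per gene, deposited by the authors as whole numbers for 12 libraries. Per the submitters' processing notes the tools include STAR and featureCounts and the build is mm10; versions, gene annotation and strand setting are not given in the sources used here. Depth was 18624132 to 24111546 counts per library.

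The counts were analysed with edgeR 4.0.16 in R 4.3.3. Genes kept by filterByExpr (13509 of 24062) were scaled by TMM (factors 0.942 to 1.07) and fitted in 1 quasi-likelihood model of 6 group means, with 6 residual degrees of freedom. There were 7 comparisons of 2 groups and 2 interactions, two-sided; p-values were adjusted by Benjamini-Hochberg across the whole tested table, and 0.05 was the threshold. The SE is the log2 fold change divided by the square root of F. CPM are counts over TMM-scaled library sizes; values per kilobase use merged exons of GENCODE M21. The procedure was tested on simulated counts. No 2 libraries were duplicates.

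The 9 genes and all lists were chosen with earlier results of these data known. The 9 genes are followed in every comparison; list members are named where called or highest in level, and correlated genes by rank, leaving out pseudogenes, receptor segments and unnamed gene models. Alternatives were DESeq2 1.42.0, limma-voom (limma 3.58.1), other scalings and filters, fits of the groups compared, replicate blocks and dropping 1 library at a time. Plots used matplotlib 3.10.9.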

Additional observations from a re-analysis of the deposited data

Results flagged for a closer look

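In 5 genes the change between tumour and TB spleen differed between Treg and Tconv by a test of the difference itself (edgeR's interaction, Treg change minus Tconv change, adjusted over all tested genes). Il1rl1 rose less in Treg, by −2.39 ± 0.50 (adjusted p = 0.00460). Il18r1 (0.60 ± 0.13, adjusted p = 0.00663) and Il18rap (1.43 ± 0.29, adjusted p = 0.00427) rose in Treg and were not called in Tconv. The part of NK cell transcripts in the differences of Il18r1 and Il18rap was not tested. Il1rap differed by −0.38 ± 0.12 (adjusted p = 0.0342). Il1rn differed by −4.60 ± 1.15 (adjusted p = 0.0140), a fitted value that depends on the prior count because TB spleen Tconv held 1 count in all. The fibroblast and macrophage marker sums differed more between the 2 tumour Tconv libraries (353 and 907 CPM; 185 and 462 CPM) than between the 2 tumour Treg libraries (635 and 688 CPM; 257 and 362 CPM), and their part in these differences was not tested.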

How the results depend on the processing

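Over 79 fold changes of the 9 genes and 1618 values under alternatives, 1552 kept their side of the threshold, 47 lost a call and 19 gained one. A switch of direction in which either value was called occurred in 0. The 1552 include switches of direction between values that were not called. Il18rap in tumour against TB spleen Tconv, for example, went from −0.25 to as high as 0.06 with 1 library left out. In fits of only the groups compared, 5 genes were called in TB against normal spleen Treg (main analysis 3; over all genes 3670 against 2066). With limma-voom 2 were called in TB against normal spleen Tconv (main analysis 4). Leaving out 1 library gave 6 to 7 called genes in tumour against TB spleen Treg, 5 to 7 in tumour against TB spleen Tconv, 6 to 8 in tumour Treg against Tconv, 4 to 5 in TB spleen Treg against Tconv, 4 in normal spleen Treg against Tconv, 1 to 4 in TB against normal spleen Treg (all genes 512 to 2711), 0 to 4 in TB against normal spleen Tconv (all genes 751 to 2720, main analysis 2328), 3 to 6 in the site interaction (all genes 2161 to 3679, main analysis 3337) and 0 in the TB interaction (all genes 42 to 221). In the TB interaction 115 genes were called in all, against 211 with DESeq2, 184 without a filter and 320 in a fit of only these groups. Scaling by library size shifted the all-gene median by −0.159 in tumour Treg and −0.108 in tumour Tconv against TB spleen, and the share of calls that were higher to 39.9% (main analysis 53.3%) and 41.5% (53.7%), and in TB against normal spleen to 66.5% (44.4%) in Treg and 78.5% (56.5%) in Tconv. Same-numbered libraries correlated at −0.129 to 0.148 after removing group means, with 2 pairs per comparison; this does not settle whether the numbers pair the libraries, and they were treated as unpaired. The numbers are those of the sample titles, and for normal mice the count columns carry others (2 and 3 for Treg libraries 1 and 2, and 1 and 3 for Tconv libraries 1 and 2). A replicate block over all 12 libraries raised TB against normal spleen Tconv to 5 (adding Il18r1, adjusted p = 0.0481), and a replicate block over the 8 libraries of TB mice left 6 in tumour Treg against Tconv and 4 in the site interaction (Il1rap lost, adjusted p = 0.0582 and 0.0752). At this depth a gene with 0 counts in a group may stand at up to 0.0739 CPM.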
